A study of Homo sapiens with 4 samples.

Results

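The mitochondrial ribosomal protein genes were followed through input and polyribosome RNA of KYSE-150 cells, a human esophageal squamous carcinoma line. Members were all rows of the expression table whose gene symbol starts with MRPL or MRPS and a digit. There were 77 such genes among 17064 rows, of which 48 were MRPL-named (large subunit) and 29 MRPS-named (small subunit). A readthrough row, URGCP-MRPS24, did not meet the rule and was left out. The choice used names only, not measured values. All 77 averaged 5 FPKM or more across the 4 libraries, a filter that 7379 rows of the table passed. These 7379 are called all genes here, and they include the members.

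The study compared control cells with normal NSUN6 expression to cells carrying a stable hairpin against NSUN6, an RNA cytosine-5 methyltransferase. Both kinds of cells were treated with 100 μg/ml cycloheximide, which holds ribosomes on mRNA, and lysed. Part of the cleared lysate gave the input RNA, and the pellet of the rest through 30% sucrose gave the polyribosome RNA. Each of the 4 groups, input and polyribosome RNA of control and of knockdown cells, had 1 library. The labels do not say which hairpin, clone or pool was used. No test and no replicate error could be had from single libraries, so every difference below is one between libraries, and a 2-fold limit was used for counting.

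Before any result rests on them, the last 2 columns need a remark. In the table's header they are polyribosome RNA and input, in this order, of the knockdown. Another set of names at the foot of the table gives the same columns as an input and a polyribosome library of cells named K30 with a hairpin against Mettl1. The header was followed here and these libraries are called knockdown-labelled, and values with both columns exchanged are given for the summaries and for many of the genes named. Differences that rest on 1 knockdown-labelled library depend on that order. The control pair carries the same fractions in both lines, and the names at the foot add a hairpin against GFP to both.

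Mitochondrial ribosomes translate the few proteins encoded by mitochondrial DNA, all of them subunits of the respiratory chain and of ATP synthase. Their RNA comes from mitochondrial DNA, but all their proteins are encoded in the nucleus, made on cytosolic ribosomes and imported. Many belong to families shared with bacterial ribosomes and others are found only in mitochondria, and the small subunit reads the mRNA while the large subunit joins the amino acids. Names do not always give the place: MRPS30 and MRPS18A are named for the small subunit but sit in the large one in current structures, and MRPS36 is now known as a subunit of the 2-oxoglutarate dehydrogenase complex. With these moved, 50 of the members are in the large subunit, 26 in the small and 1 in neither.

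NSUN6 was at 8.85 FPKM in input and 10.1 in polyribosome RNA of control cells, and 3.83 in input and 0.38 in polyribosome RNA of knockdown-labelled cells. METTL1 was at 13.0, 14.3, 5.98 and 8.32 FPKM in the same order, so both genes named as hairpin targets were lower in the knockdown-labelled libraries. The epithelial keratins KRT8 and KRT18 were between 1503 and 2547 FPKM in the 4 libraries. The basal squamous keratin KRT5 was at 906 FPKM in control input and 0.45 in knockdown-labelled input, whereas KRT19 was at 0.07 and 1488. Other squamous markers did not all go with KRT5. KRT14 (64.8 and 3.83 FPKM) and KRT17 (274 and 7.39) were also lower, but KRT13 was higher (1.56 and 303). KRT6A (29.5 and 34.25) and TP63 (30.25 and 23.7) differed little in input in the header's order. In the other knockdown-labelled library KRT6A was at 40.0 FPKM but TP63 at 2.16. EPCAM, another epithelial marker, was at 66.4 FPKM in control input and at 186 and 28.05 in knockdown-labelled input and polyribosome RNA. The part of these differences between the cells in the results below was not tested. The 11 markers of fibroblasts, endothelium and immune cells summed to between 2.11 and 3.71 FPKM per library. In bulk RNA, fewer cells of a type and less RNA per cell cannot be told apart.

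Mitochondrial ribosomal protein mRNAs were abundant in these cells. Their FPKM, a level scaled to transcript length and to mapped fragments, had a median of 62.2 in control input, where all genes had a median of 21.3. In control input 70 of the 77 lay above the middle of all genes. They summed to 6406 FPKM in input and 7416 in polyribosome RNA of control cells, and 6756 in input and 7683 in polyribosome RNA of knockdown-labelled cells. These sums were 1.11%, 1.31%, 1.26% and 1.22% of all FPKM in each library, a narrow range. For 36 of the members a pseudogene with the same stem of the symbol is known, and their values are uncertain where counting could have split reads between copies.

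Most proteins of the particle are present in equal numbers, yet the mRNA levels of the members ranged widely. In control input the lowest was MRPL19 at 6.69 FPKM and the highest MRPL51, a protein found only in mitochondrial ribosomes, at 305 FPKM. By the mean over the libraries the 5 highest members were MRPL12 (301 FPKM), MRPL37 (300.4), MRPL51 (300.1), MRPS24 (275) and MRPS15 (257). MRPL12 is the flexible stalk protein that contacts translation factors, and MRPS15 and MRPS24 belong to bacterial small-subunit families. The 5 lowest by mean were MRPL19 (6.55 FPKM), MRPL1 (8.02), MRPS31 (12.2), MRPL42 (13.9) and MRPS14 (14.2).

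The order of the members was much alike in the control pair and less so in the other pair. Across the 77 genes, which are not independent replicates, Spearman's rho between control input and control polyribosome levels was 0.98, and between both knockdown-labelled libraries 0.88. Between the control and the knockdown-labelled input it was 0.83, and between the polyribosome libraries 0.79. The spread widened in 1 library. The SD of log2(FPKM + 1) over the members was 1.18 in input and 1.13 in polyribosome RNA of control cells, and 1.16 in input and 1.96 in polyribosome RNA of knockdown-labelled cells. All genes had 1.76, 1.82, 1.74 and 2.17 in the same libraries. In that last library 5 of the 77 members and 1621 of the 7379 genes were under 5 FPKM. In each of the others no member was, and between 413 and 516 of all genes were.

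**Figure D1:**
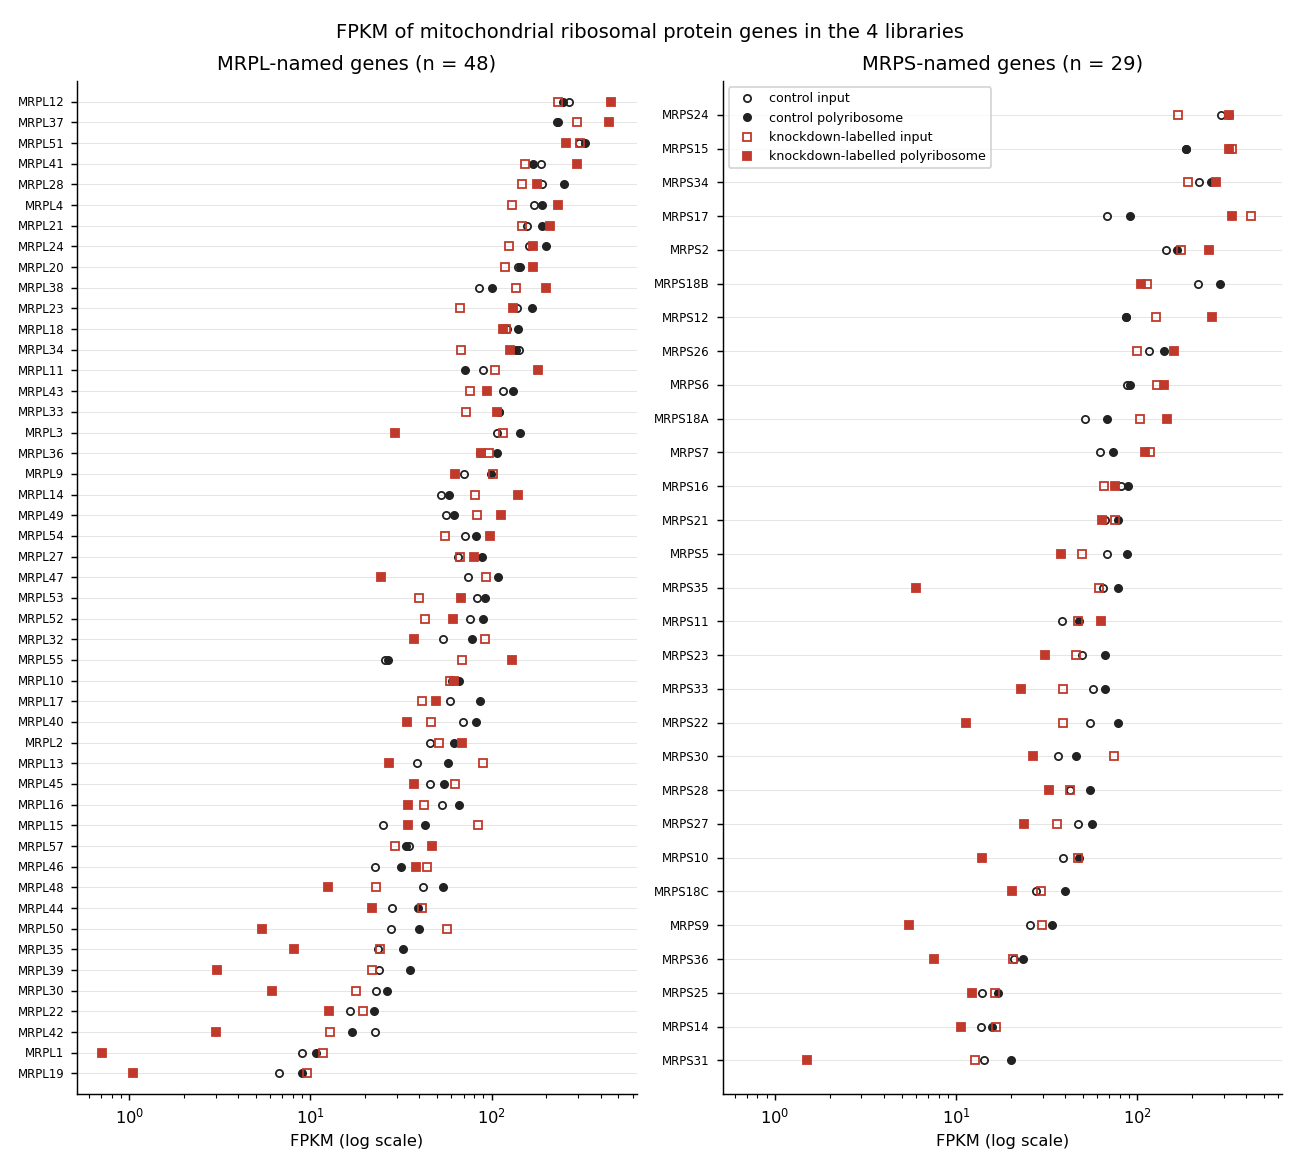
FPKM of each of the 77 genes (log axis) in the 4 libraries, MRPL-named genes on the left and MRPS-named on the right, ordered by mean level; each symbol is 1 library. Control symbols lie close together, and knockdown-labelled polyribosome symbols run from 0.71 FPKM for MRPL1 to 458 for MRPL12.

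Large-subunit mRNAs had a higher median level than small-subunit mRNAs in every library. The MRPL-named median was 67.3 FPKM in input and 82.0 in polyribosome RNA of control cells, and 68.3 in input and 65.3 in polyribosome RNA of knockdown-labelled cells. The MRPS-named median was 56.7, 73.6, 61.6 and 38.0 FPKM. The gap was thus smallest in knockdown-labelled input and widest in knockdown-labelled polyribosome RNA. The summed FPKM of the large subunit over that of the small was 1.79 in input and 1.74 in polyribosome RNA of control cells, and 1.48 in input and 1.67 in polyribosome RNA of knockdown-labelled cells.

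In control cells the members were slightly richer in polyribosome RNA than in input. Efficiency is given here as log2 of (polyribosome FPKM + 1) over (input FPKM + 1), which understates differences of low genes. It had a median of 0.26 over the members and 0.03 over all genes, and it was above 0 for 69 of the 77 members, 89.6%, against 54.3% of all genes. The share above 0 was 41 of 48 for the large subunit and 28 of 29 for the small, and the subunit medians were 0.25 and 0.26. No member differed by 2-fold in either direction. Of all genes, 0.00% stood at least 2-fold above and 0.759% at least 2-fold below. The members also spread less than all genes, with interquartile ranges of 0.27 and 0.37.

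The control values of the outermost members were small and mostly positive. MRPL15, a large-subunit protein of a bacterial family, was at 25.1 FPKM in control input and 42.7 in polyribosome RNA, an efficiency of 0.75, the highest of the members. MRPL17 (0.56) and MRPL39 (0.55) came next among the large subunit. MRPS18C and MRPS22 (both 0.50) and MRPS31 (0.47) were highest in the small subunit. MRPL42 was lowest, with 22.7 FPKM in input and 17.0 in polyribosome RNA, an efficiency of -0.40. MRPL11, at the base of the stalk, was at 90.2 and 71.6 FPKM, an efficiency of -0.33, and MRPL41 followed at -0.15. The lowest small-subunit values were close to 0: MRPS15 at -0.01, MRPS12, a protein of the decoding centre, at 0.01, and MRPS6 at 0.06.

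Input RNA of the members differed little on the whole between knockdown-labelled and control cells. The median difference of log2(FPKM + 1) was 0.01 over the members and 0.01 over all genes, with -0.00 for the large subunit and 0.07 for the small. Of the 77, 6 stood at least 2-fold above control and 3 at least 2-fold below, that is 7.79% and 3.90%. Of all genes, 13.2% stood at least 2-fold above and 14.4% at least 2-fold below. The interquartile range was 0.79 over the members and 1.17 over all genes. With the knockdown-labelled columns exchanged the members' median was -0.17 and that of all genes -0.23. In that order 6 members were at least 2-fold higher (15.9% of all genes) and 19 at least 2-fold lower (31.8% of all genes).

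The member that stood farthest apart in input was MRPS17, a small-subunit protein of a bacterial family. It was at 67.9 FPKM in input and 90.6 in polyribosome RNA of control cells, and 422 in input and 331 in polyribosome RNA of knockdown-labelled cells, an input difference of 2.62 on the log2 scale. Both knockdown-labelled libraries were thus above both control libraries, and the difference was 2.27 with the columns exchanged. Of the 10 expressed genes nearest to MRPS17 on chromosome 7, 8 were at least 2-fold higher in knockdown-labelled input as well, and 5 in the exchanged order. The ratio of summed large to small subunit FPKM was lowest in the library where MRPS17 was highest.

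MRPL55, grouped here with the bacterial families, also kept the knockdown-labelled libraries above the control ones. It was at 25.8 and 26.7 FPKM in the control pair and at 69.1 and 130 in knockdown-labelled input and polyribosome RNA, with an input difference of 1.39. Its input difference was 2.29 in the exchanged order, and 6 of its 10 neighbours on chromosome 1 were at least 2-fold higher too, or 8 when exchanged. MRPL15 was at 25.1 FPKM in control input and 83.8 in knockdown-labelled input, a difference of 1.70. MRPL13 was at 38.9 and 90.0 FPKM, a difference of 1.19, but at 27.3 FPKM in knockdown-labelled polyribosome RNA. For MRPL13 the libraries of the 2 groups overlapped, and the sign of its input difference depends on the column order. The other members at least 2-fold higher were MRPS30 (1.02) and MRPL50 (1.00), which also turned sign in the exchanged order, to -0.45 and -2.16. MRPS18A followed at 0.99.

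The 3 members at least 2-fold lower in input, all of the large subunit, were so only in the header's order. When exchanged, MRPL34 was at -0.17, MRPL53 at -0.31 and MRPL23 at -0.08, and the 19 members at least 2-fold lower were 11 of the large and 8 of the small subunit. In the header's order these genes were just past the limit. MRPL34 was at 142 FPKM in control input and 67.5 in knockdown-labelled input (-1.06), MRPL53 at 83.6 and 39.8 (-1.05) and MRPL23, a protein at the exit of the peptide tunnel, at 139 and 67.2 (-1.03). In polyribosome RNA these genes were closer, with 137 and 126 FPKM for MRPL34 in control and knockdown-labelled cells. The lowest in the small subunit were MRPS18B (-0.94), MRPS24 (-0.79) and MRPS33 (-0.54), with -1.04, 0.15 and -1.28 when exchanged.

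**Figure D2:**
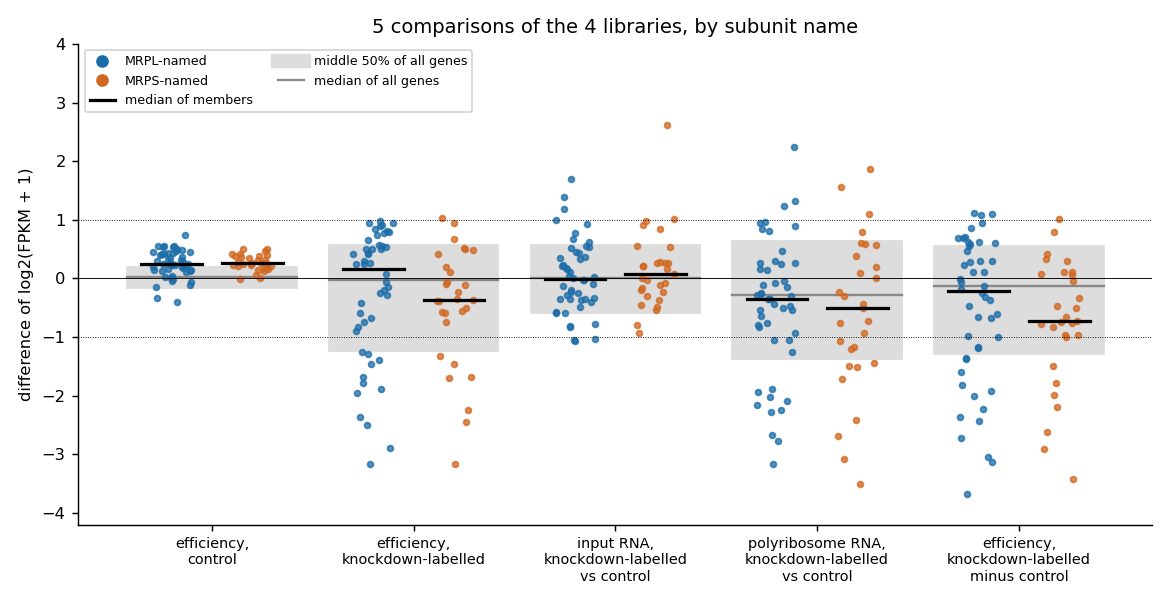
Differences of log2(FPKM + 1) of the 48 MRPL-named and 29 MRPS-named genes in 5 comparisons; each point is 1 gene, black bars are group medians, grey boxes span the interquartile range of all genes around their median, and dotted lines mark 2-fold. The control efficiency points lie between -0.40 and 0.75, and knockdown-labelled comparisons reach below -3.

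Polyribosome RNA showed larger differences than input, mostly toward lower levels in the knockdown-labelled library. The median difference was -0.44 over the members, -0.35 for the large subunit, -0.51 for the small and -0.28 over all genes. Of the members, 6 stood at least 2-fold above control and 24 at least 2-fold below. Of all genes, 16.7% stood at least 2-fold above and 32.9% at least 2-fold below, so the members' 31.2% lower was near the background. Over all 17064 rows, low ones included, 10.3% and 22.4% did. The counts were 3 higher and 13 lower of 48 in the large subunit and 3 higher and 11 lower of 29 in the small. In the exchanged order 2 members were at least 2-fold higher (12.7% of all genes) and 7 at least 2-fold lower (14.0% of all genes), and the median was -0.21 where all genes had -0.01.

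The lowest polyribosome differences in the small subunit were MRPS35 at -3.50, MRPS31 at -3.08 and MRPS22 at -2.68, all found only in mitochondrial ribosomes. MRPS22 was at 54.99 FPKM in input and 78.4 in polyribosome RNA of control cells, and 38.8 in input and 11.4 in polyribosome RNA of knockdown-labelled cells. In the large subunit MRPL39 was at -3.17, MRPL1 at -2.78 and MRPL50 at -2.67. These low values rest on the library called polyribosome RNA in the header: in the exchanged order MRPS35 was at -0.33, MRPS31 at -0.63, MRPS22 at -0.99, MRPL39 at -0.67, MRPL1 at 0.12 and MRPL50 at 0.49. The highest were MRPL55 at 2.24, MRPS17 at 1.86, MRPS12 at 1.56, MRPL11 at 1.33, MRPL14 at 1.24 and MRPS18A at 1.10. MRPL14, which lies at the interface of the subunits, was at 52.3 and 58.3 FPKM in the control pair and at 80.9 and 139 in knockdown-labelled input and polyribosome RNA. For MRPL14, MRPS12, MRPS18A, MRPL11, MRPL55 and MRPS17 both knockdown-labelled libraries lay above both control libraries.

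Comparing all libraries of the 2 kinds of cells at once does not depend on which knockdown-labelled column is which. Both knockdown-labelled libraries were above both control libraries for 14 members, 18.2%, and for 26.1% of all genes. These members were MRPL11, MRPL14, MRPL37, MRPL38, MRPL46, MRPL49, MRPL55, MRPS2, MRPS6, MRPS7, MRPS12, MRPS15, MRPS17 and MRPS18A. Both were below for 25 members, 32.5%, and for 31.3% of all genes, among them MRPL39, MRPL42, MRPS18B, MRPS22, MRPS31 and MRPS35. MRPS15, a protein of a bacterial family, was at 186 and 185 FPKM in the control pair and at 334 and 321 in knockdown-labelled input and polyribosome RNA. The members' share below was thus near the background, and their share above was under it. For the remaining 38 members the libraries of the 2 kinds of cells overlapped.

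In knockdown-labelled cells efficiency spread widely on both sides of 0. The median efficiency was -0.14 over the members and -0.02 over all genes, with 34 of 77 members above 0, 44.2%, against 49.3% of all genes. The large subunit had a median of 0.16 and the small of -0.38. Only MRPS12 was at least 2-fold higher in polyribosome RNA than in input, and 19 members were at least 2-fold lower, 12 of the large and 7 of the small subunit. Of all genes, 8.62% stood at least 2-fold above and 28.8% at least 2-fold below. With the columns exchanged these values change sign, so 19 members were higher (28.8% of all genes) and 1 lower (8.62% of all genes), with 43 above 0.

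Members with the lowest and highest efficiency differed in the letters at the last positions of their codons. The stretches below show this for MRPL50 and MRPS35, the lowest of each subunit in efficiency change, and for MRPL11 and MRPS12, the highest. MRPL41 was added because its transcript has the highest GC content of the members, so a high count there was built into the choice. Each stretch is 40 codons from the middle of the coding sequence, 5′ to 3′ on the coding strand (GRCh38, GENCODE 29). Capitals mark a G or C as the last base of a codon. For MRPL50 (chr9:101390646-101390765, minus strand, within 1 coding exon) 12 of the 40 last bases are G or C, and for MRPS35 (chr12:27724088-27735467, plus strand, across 2 exons) 11. For MRPL11 (chr11:66437229-66437434, minus strand, across 2 exons) the count is 22, for MRPS12 (chr19:38932431-38932550, plus strand, 1 exon) 32 and for MRPL41 (chr9:137552226-137552345, plus strand, 1 exon) 38.
MRPL50: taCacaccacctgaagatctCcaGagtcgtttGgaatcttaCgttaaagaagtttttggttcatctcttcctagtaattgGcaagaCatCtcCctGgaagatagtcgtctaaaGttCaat
MRPS35: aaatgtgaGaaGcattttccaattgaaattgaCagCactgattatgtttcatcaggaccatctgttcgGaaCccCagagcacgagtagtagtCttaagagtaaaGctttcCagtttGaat
MRPL11: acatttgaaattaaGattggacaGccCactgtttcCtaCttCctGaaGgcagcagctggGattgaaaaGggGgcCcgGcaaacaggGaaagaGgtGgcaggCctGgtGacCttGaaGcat
MRPS12: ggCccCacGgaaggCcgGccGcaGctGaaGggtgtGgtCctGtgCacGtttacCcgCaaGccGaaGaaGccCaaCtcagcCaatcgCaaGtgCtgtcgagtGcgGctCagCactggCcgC
MRPL41: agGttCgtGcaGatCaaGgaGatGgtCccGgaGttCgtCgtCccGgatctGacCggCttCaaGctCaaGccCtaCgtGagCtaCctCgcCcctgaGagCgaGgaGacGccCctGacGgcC
Over the whole coding sequence the share of codons that end in G or C is 37.3% in MRPL50, 38.4% in MRPS35, 64.1% in MRPL11, 80.4% in MRPS12 and 90.5% in MRPL41.

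Efficiency change, the knockdown-labelled efficiency minus the control efficiency, was lower for many members and higher for few. Its median was -0.46 over the members and -0.12 over all genes. The change was at least 2-fold lower for 23 members and at least 2-fold higher for 4. Of all genes, 30.1% stood at least 2-fold below and 12.0% at least 2-fold above, so the members' 29.9% lower was near the background and their 5.19% higher was under it. The background itself depends on the filter: over all 17064 rows 19.6% stood that far below and 6.18% above. The large subunit had a median of -0.22 with 3 higher and 15 lower, and the small a median of -0.72 with 1 higher and 8 lower. After exchange of the columns 17 members were at least 2-fold higher (27.8% of all genes) and 4 at least 2-fold lower (6.29% of all genes).

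The large-subunit member with the lowest efficiency change was MRPL50, a protein found only in mitochondrial ribosomes. It was at 27.8 FPKM in input and 39.9 in polyribosome RNA of control cells, and 56.5 in input and 5.43 in polyribosome RNA of knockdown-labelled cells, a change of -3.67. MRPL50 was thus highest in one knockdown-labelled library and lowest in the other. MRPS35 had the lowest change in the small subunit, -3.43, with 64.9, 77.8, 61.6 and 5.97 FPKM in the same order. For MRPS35 3 libraries lay between 61.6 and 77.8 FPKM and 1 stood far below. The authors' deposited table gives ratios of polyribosome to input of 1.37 in control and 0.170 in knockdown for MRPL50, and of 1.18 and 0.165 for MRPS35. In the exchanged order the changes were 2.65 for MRPL50 and 2.91 for MRPS35.

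The next members repeated this picture of a single low library, and they too turn sign when the columns are exchanged. MRPL1, whose bacterial relative forms the arm where spent tRNA leaves, was at 8.96, 10.7 and 11.7 FPKM and then 0.71 in knockdown-labelled polyribosome RNA (-3.13). MRPL39 was at 23.9, 35.4 and 21.9 FPKM and then 3.05 (-3.05). MRPS31 was at 14.3, 20.2 and 12.6 FPKM and then 1.50 (-2.91). The last library was lowest for all 3. MRPS9, of a bacterial family, was at 25.7, 33.7 and 29.8 FPKM and then 5.51 (-2.62). Other members at least 2-fold lower, named after their values were seen, included MRPL19 (-2.73), MRPL3 (-2.37), MRPL13 (-2.23), MRPS22 (-2.19), MRPL15 (-2.00) and MRPS10 (-1.98).

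The members with a higher efficiency change differed by less. MRPL11 was at 90.2 FPKM in input and 71.6 in polyribosome RNA of control cells, and 105 in input and 181 in polyribosome RNA of knockdown-labelled cells, a change of 1.12. With the columns exchanged it was -0.46. MRPL41 was at 187, 168, 153 and 295 FPKM, a change of 1.09, and MRPL12 at 266, 246, 232 and 458 FPKM, also 1.09. In these large-subunit members the knockdown-labelled polyribosome library was the highest of the 4. MRPS12 was at 86.3, 87.1, 126 and 258 FPKM, a change of 1.01. MRPS24 (0.80) and MRPS26 (0.42) followed in the small subunit. The authors' deposited table gives MRPS12 a ratio of 1.01 in control and 2.00 in knockdown, and MRPL11 0.805 and 1.70.

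The order of the members by efficiency was turned around between the pairs. Across the 77 members, Spearman's rho between control efficiency and knockdown-labelled efficiency was -0.59, and over all genes it was -0.12; these pairs share no library. A value above 0 in control and below 0 in knockdown-labelled cells was found for 41 members, 53.2%, and for 29.3% of all genes. This contrast is tied to the control values, which were above 0 for 89.6% of members and 54.3% of all genes. It thus adds little to them. The reverse signs, below 0 in control and above 0 in knockdown-labelled cells, were found for 6 members, 7.79%. Their share over all genes was not counted. With the columns exchanged the sign of the correlation turns.

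**Figure D3:**
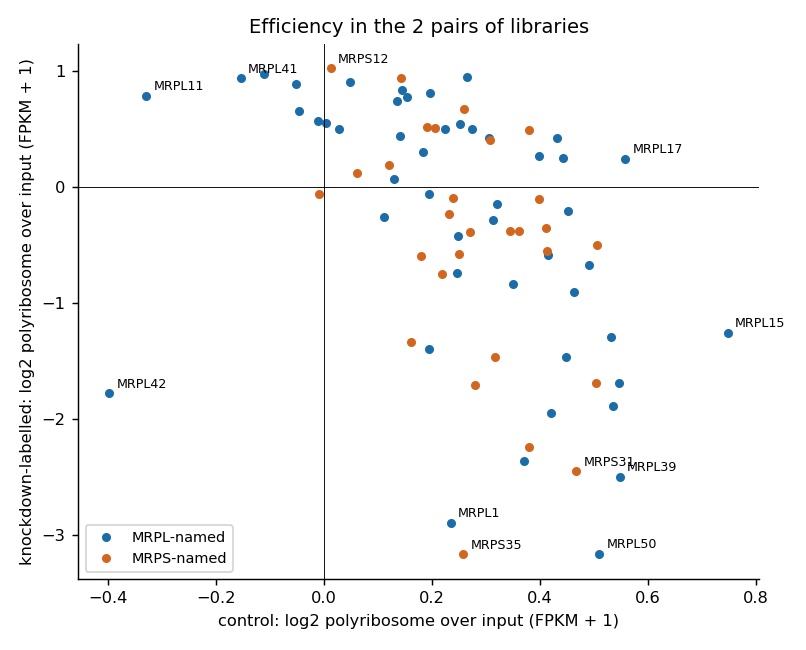
Efficiency, log2 of (polyribosome FPKM + 1) over (input FPKM + 1), of the 77 genes in control libraries (x axis) and knockdown-labelled libraries (y axis); each point is 1 gene, blue MRPL-named and orange MRPS-named. The y axis spans -3.17 to 1.03 and the x axis -0.40 to 0.75, and 41 genes lie at the lower right, above 0 in control and below 0 in the other pair.

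GC content and efficiency change went together among the members, as they did over the whole table. The GC content of 1 GENCODE 29 transcript per gene had a median of 48.9% over the members, 50.8% in the large subunit, 47.3% in the small and 52.3% over all genes. Across members its Spearman's rho with efficiency change was 0.81, and across 7166 genes with a transcript 0.79. With knockdown-labelled efficiency rho was 0.83 in both sets, and with control efficiency it was -0.38 over the members and 0.02 over all genes. The share of codons that end in G or C gave 0.87 over the members and 0.73 over all genes. Transcript length gave -0.43 and -0.21.

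In the header's order, members in each class of GC content had efficiency changes near those of all genes in the same class. Of the 22 members under 45% GC, 16 were at least 2-fold lower in efficiency change, 72.7%, with a median of -1.75. In that class 79.7% of all genes were at least 2-fold lower, with a median of -1.84. The 35 members between 45% and 55% had a median of -0.37 where all genes had -0.49. The 20 members at 55% or more had a median of 0.60 where all genes had 0.55, and none of the 20 was at least 2-fold lower. Control efficiency went against this, with medians of 0.39, 0.27 and 0.19 in the members' classes. Over all genes they were -0.04, 0.08 and 0.02, so the members were above the gene median in each class. With the columns exchanged the median efficiency changes were 1.18, -0.14 and -0.86 in the members' classes. All genes then had 1.91, 0.25 and -0.65, so the members were below the gene median in each class.

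**Figure D4:**
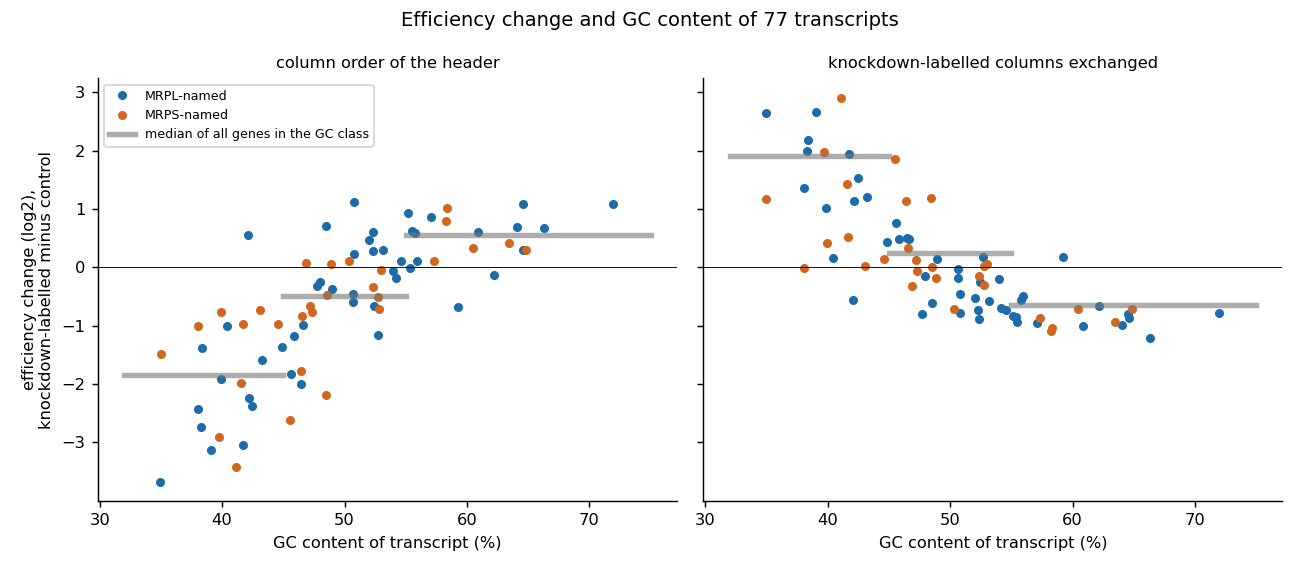
Efficiency change of the 77 genes (log2, y axis) against the GC content of 1 transcript per gene (percent, x axis), with the columns as in the header (left) and with the knockdown-labelled columns exchanged (right); grey bars are medians of all genes in each GC class. The left panel runs from members under 45% with a median of -1.75 to members at 55% or more with 0.60, and the right panel runs the other way.

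A trend in GC content and log2 length, with linear and squared terms, was fitted over all genes and removed. This made the gap between the pooled subunit medians small in efficiency change and in knockdown-labelled efficiency, but not in polyribosome RNA. The large-subunit median minus the small-subunit median of efficiency change was 0.50 before and -0.08 after. For knockdown-labelled efficiency it was 0.53 before and 0.04 after, and for the polyribosome difference 0.16 before and -0.32 after. With subunits assigned by structure the efficiency change gap was 0.47. With the columns exchanged it was -0.37. Before removal the gap was not alike across GC classes. The large and small medians of efficiency change were -2.23 and -1.01 under 45% GC. They were -0.25 and -0.58 between 45% and 55%, and 0.62 and 0.37 at 55% or more. The SD of efficiency change over the members went from 1.20 to 0.76 and that over all genes from 1.28 to 0.82. After removal MRPL11 had the highest named value, 1.15, whereas MRPL12 was at -0.51 and MRPL41 at -0.96. The removal kept the mean of all genes, and their median efficiency change was then -0.40. MRPL39 was at -2.06, MRPS35 at -2.11, MRPS9 at -1.98, MRPL1 at -1.62, MRPS31 at -1.51 and MRPL50 at -1.35.

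The proteins of the stalk, which recruits translation factors to the large subunit, were unequal. MRPL10 was at 60.4, 66.2, 59.3 and 62.4 FPKM in control input and polyribosome RNA and in knockdown-labelled input and polyribosome RNA, and its efficiency change was -0.06. Its partners MRPL11 and MRPL12, given above, had changes of 1.12 and 1.09. MRPL12 was above MRPL10 in every library, from 3.72 times in control polyribosome RNA to 7.33 times in knockdown-labelled polyribosome RNA. MRPL47, of a bacterial family near the tunnel exit, was at 74.3, 108, 93.6 and 24.6 FPKM, a change of -2.42 or, exchanged, 1.35, and MRPL55 had 0.86 or -0.96.

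The 3 paralogs of 1 bacterial protein, MRPS18A, MRPS18B and MRPS18C, went apart. MRPS18A, which sits in the large subunit, was at 51.7, 67.6, 103 and 146 FPKM in the same order. MRPS18B was at 217, 287, 113 and 105 FPKM, and MRPS18C at 27.7, 39.8, 29.3 and 20.4. Both knockdown-labelled libraries were above the control ones for MRPS18A and below them for MRPS18B, and those directions hold with the columns exchanged. Their efficiency changes were 0.11, -0.50 and -1.01, and the GC content of their transcripts 57.3%, 52.7% and 38.0%.

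Members whose protein is not in the small subunit despite its name were low in knockdown-labelled polyribosome RNA in 2 of 3 cases. MRPS30 was at 36.4, 45.7, 74.8 and 26.5 FPKM (efficiency change -1.78, exchanged 1.15), and MRPS36 at 20.9, 23.5, 20.6 and 7.57 (-1.49, exchanged 1.17). The third, MRPS18A, is given above. By origin, the 48 members of bacterial families had a median efficiency change of -0.28 and the 29 found only in mitochondria -0.67, an order that turns to -0.18 and 0.14 with the columns exchanged. Their median input differences were 0.16 and -0.17, their polyribosome differences -0.28 and -0.55, and their control efficiencies 0.29 and 0.25.

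NSUN6 is known to methylate cytosine in mRNA at a motif with the letters CTCCA. At least 1 CTCCA was present in the transcript of 65 of the 77 members, 84.4%, and of 94.0% of all genes, whose transcripts were longer (median 2616 against 1455 bases). The median was 1.17 per kb over the members and 1.57 over all genes. Across members rho between CTCCA per kb and efficiency change was -0.01, and over all genes 0.29. MRPL50 and MRPS35 hold 3 each and MRPS9 none, and MRPL41 none and MRPS12 5, so both ends of the range include transcripts with and without it. A match is only a run of letters and no methylation was measured here.

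Letters of an ETS and of a YY1 motif were more frequent in promoters of the members than in those of all genes, and 4 other motifs were near or below. RefSeq promoters (GRCh38.p14, 250 bases before to 50 after the start) were found for 68 of the 77. On either strand CCGGAAG, a core of ETS factors such as GABPA, was present in 28 of the 68, 41.2%, in 22.2% of 5789 promoters of all genes and in 10.7% of 27305 promoters of RefSeq. AAGATGGC, a core of YY1, was present in 20, 29.4%, against 6.94% and 3.03%. Both cores occurred together in 8 members, MRPL20, MRPL38, MRPL47, MRPL51, MRPL52, MRPS10, MRPS12 and MRPS18A. GCGCANGCG, for NRF1, was present in 13, 19.1%, against 16.9% and 8.05%. CACGTG, the E-box, was in 6, CCAAT in 20 and TATAAA in 2 of the 68, shares of 8.82%, 29.4% and 2.94% where promoters of all genes had 10.5%, 37.4% and 4.77%.

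The YY1 letters mostly lay just after the start and often contained the start codon. Of 19 members with the motif and a full window, 14 had it after the start, 15 had it on the gene strand, and in 11 its ATG was the annotated start codon. The 30-base windows below show it in the 4 such members with the highest mean level, on the gene strand and with the motif in capitals. They are MRPL51 (chr12:6493223-6493252, minus strand), MRPS24 (chr7:43869480-43869509, minus), MRPS18B (chr6:30617852-30617881, plus) and MRPL20 (chr1:1407260-1407289, minus).
MRPL51: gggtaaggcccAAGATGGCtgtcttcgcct
MRPS24: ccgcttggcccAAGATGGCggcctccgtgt
MRPS18B: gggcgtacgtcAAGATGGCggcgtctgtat
MRPL20: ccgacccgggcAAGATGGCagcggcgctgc
In MRPS24 and MRPS18B the ATG is the start codon.

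Of 7 mitoribosomal proteins that carry other symbols, 5 were in the table past the filter, and their values were within the members' range. DAP3, a GTP-binding protein of the small subunit, was at 82.5, 98.1, 71.0 and 46.5 FPKM in control input and polyribosome RNA and in knockdown-labelled input and polyribosome RNA. The 5 genes had a median control efficiency of 0.25, against 0.26 for the members, and a median efficiency change of 0.34. None of the 5 was at least 2-fold higher or lower in efficiency change.

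Other genes of mitochondrial gene expression had control efficiencies nearer to all genes in most lists, and several had lower efficiency changes than the members. The 25 mitoribosome assembly and rRNA modification genes had a median control efficiency of 0.22 and a median efficiency change of -0.17, with none at least 2-fold higher and 3 lower. The 14 mitochondrial translation factors had 0.07 and -0.76, with 0 higher and 5 lower. The 18 mitochondrial aminoacyl-tRNA synthetases had 0.14 and -0.65, with 0 higher and 7 lower. Assembly factors were thus nearest to the members in control efficiency. The 14 genes of mitochondrial DNA upkeep and transcription had 0.16 and -1.29, with 0 higher and 8 lower. The 28 genes of mitochondrial protein import had 0.07 and 0.06, with 5 higher and 7 lower. The 9 nuclear regulators of mitochondrial genes had 0.08 and -0.41, with 1 higher and 3 lower. Shares of all genes past these limits are given above.

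Single genes of these lists covered a similar range to the members. MTERF3, which acts in mitochondrial transcription and ribosome assembly, was at 9.49, 13.6, 19.5 and 1.62 FPKM in the order above (efficiency change -3.44). TFB2M, a transcription factor of mitochondrial DNA, was at 24.1, 29.02, 20.7 and 2.17 (-3.03), and TOMM5, of the outer-membrane import pore, at 122, 93.9, 119 and 222 (1.26). As in the low members, the last library was lowest for MTERF3 and TFB2M, and as in the high members it was highest for TOMM5. With the columns exchanged the median efficiency changes were -0.35 for assembly, 0.77 for translation factors, 0.16 for synthetases, 0.79 for DNA upkeep and transcription, -0.29 for import, 0.06 for regulators and -0.55 for the mitoribosomal proteins with other symbols.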

How the data were processed

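Input and polyribosome RNA were measured by poly(A) RNA sequencing in 4 libraries, 1 per group, and the kit kept the strand, per the labels' protocols. The authors deposited FPKM per gene symbol. The submitters' processing notes name TopHat, hg19 and GRCh37, and how fragments were counted, with which annotation, is not given in the sources used here. The authors also deposited a ratio of polyribosome to input per gene, which the values reproduce as FPKM plus 5 over FPKM plus 5 (largest gap among members 4.98e-10). Depth is unknown, because values are rounded to 0.01 FPKM, so no interval was computed. Libraries summed to 538002 to 627887 FPKM. No column of another sample was used.

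Differences are of log2(FPKM + 1), computed for 5 comparisons with Python 3.11.15, pandas 2.3.3 and numpy 2.4.6. Genes averaging 5 FPKM or more were kept. Without replicates no test was run, and genes past 2-fold were counted. GC content, length and CTCCA counts come from 1 GENCODE 29 transcript per symbol, chosen by APPRIS rank, support level and coding length (97.1% of genes matched). GENCODE 29 is on GRCh38 and the reads were mapped to hg19, so these describe the genes, not the reads. MRPL42 was given a transcript of 15582 bases. The computation was checked on simulated data.

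Genes are named by a rule: the 3 highest and 3 lowest of each subunit in each comparison, the 5 highest and lowest by mean, members of known biology (the stalk, MRPL47, MRPL55, MRPS18 paralogs, MRPS30, MRPS36), up to 2 highest and lowest of each list (of which DAP3, MTERF3, TFB2M and TOMM5 are used), and NSUN6. Members, 7 lists and cell type markers were chosen with earlier results of these data known. Alternatives were pseudocounts of 0.1 and 5, other filters, centring on the median, exchanged columns, subunits by structure, and removal of the GC and length trend.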

Additional observations from a re-analysis of the deposited data

Results flagged for a closer look

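Several efficiencies had opposite signs in the control and the knockdown-labelled pair of libraries. The difference was not tested, since each pair has 1 input and 1 polyribosome library, and with the knockdown-labelled columns exchanged the knockdown-labelled values change sign. The median over all members was 0.26 in the control pair and -0.14 in the knockdown-labelled pair. The median over MRPS-named members was 0.26 and -0.38. MRPL50 had 0.51 and -3.16, MRPL39 0.55 and -2.50, and MRPL47 0.54 and -1.89. MRPL13 had 0.55 and -1.69, MRPS22 0.50 and -1.69, MRPL32, a large-subunit protein of a bacterial family, 0.53 and -1.29, and MRPL15 0.75 and -1.25. All these genes have transcripts under 49% GC, the highest being MRPS22 at 48.5%, and the median of all members was 48.9%. These genes were picked in part by low knockdown-labelled efficiency. That efficiency had a Spearman's rho of 0.83 with GC content over the members, so low GC was partly built into the choice.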

How the results depend on the processing

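With 1 library per group none could be left out. No paired analysis was possible because every group has a single library and there is no test. Pseudocount 0.1 kept every summary value and count within the limits set, and subunits by structure the 5 subunit gaps. Other filters could not alter members' values, since all 77 pass, but without a filter the background of efficiency change was 6.18% above and 19.6% below 2-fold. With pseudocount 5, 1 member was at least 2-fold lower in input, and the polyribosome gap of large minus small subunit medians was 0.055. Centring on the median of all genes gave a polyribosome median of -0.16 and 12 members at least 2-fold higher there (22.8% of all genes).

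Exchanging the knockdown-labelled columns changed most. Knockdown-labelled efficiency had a median of 0.14 and a subunit gap of -0.53, with 19 members higher and 1 lower. Input had a median of -0.17, a gap of 0.20 and 19 lower. Polyribosome RNA had a median of -0.21, a gap of -0.027, 2 higher and 7 lower. Efficiency change had a median of -0.14, a gap of -0.37, 17 higher and 4 lower. Knockdown-labelled efficiency became 3.16 for MRPL50, 2.89 for MRPL1, 2.50 for MRPL39, 3.17 for MRPS35, 2.45 for MRPS31, 2.24 for MRPS9 and -1.03 for MRPS12. Input became -0.50 for MRPL13 and -0.45 for MRPS30, and polyribosome RNA 0.12 for MRPL1 and 0.49 for MRPL50. Efficiency change became 2.65 for MRPL50, 2.66 for MRPL1, 1.95 for MRPL39, -0.86 for MRPL12, -0.78 for MRPL41, -0.46 for MRPL11, 2.91 for MRPS35, 1.98 for MRPS31, 1.86 for MRPS9 and -1.04 for MRPS12.

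Removing the GC and length trend gave knockdown-labelled efficiency a median of -0.32, a gap of 0.040, 2 higher and 9 lower, where all genes had a median of -0.37, 2.87% higher and 14.4% lower. Input then had 0 lower (14.1% of all genes). Polyribosome RNA had a gap of -0.32 and 3 higher (10.2% of all genes). Efficiency change had a gap of -0.084, with 2 members higher (5.09% of all genes) and 23 of 77 lower (17.7% of all genes). There MRPL12 was at -0.51 and MRPL41 at -0.96, where all genes had a median of -0.40. Of 37 values of single genes, 4 came under 2-fold in the same direction with pseudocount 5, 12 with exchanged columns and 12 with the trend removed. A further 21 changed sign with exchanged columns, where 4 stayed past 2-fold in the same direction. With the trend removed 2 changed sign. The cause of these shifts was not tested.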

Other observations

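Genes beside MRPS17 on chromosome 7 were also higher in knockdown-labelled input. Of the 10 nearest expressed genes in GRCh38.p14 order, 5 on each side, 8 were at least 2-fold higher, with a median of 1.65 on the log2 scale. They included CCT6A, a chaperonin subunit (111 FPKM in control input and 589 in knockdown-labelled input), EGFR, a growth factor receptor (19.2 and 64.6), and SEC61G, of the endoplasmic reticulum channel (233 and 628). In the exchanged order 5 of the 10 were at least 2-fold higher, with a median of 0.91: SEC61G was at 686 FPKM in the other knockdown-labelled library, but CCT6A at 95.6 and EGFR at 10.1, below their control input. UPP1 went the other way, with 193 and 20.1 FPKM. MRPL55 on chromosome 1 had a like neighbourhood, with 6 of 10 genes at least 2-fold higher and a median of 1.39, equal to its own difference, and 8 of 10 and 1.73 when exchanged. RNF187 was at 37.7 and 118 FPKM and TRIM11 at 9.87 and 28.3. The neighbours named here were picked by their values.

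In the header's order the other members past 2-fold in input had neighbours nearer to 0. The medians of their 10 neighbours were 0.50 for MRPL15, 0.46 for MRPL50, 0.28 for MRPL13, 0.12 for MRPS30, 0.13 for MRPL34, -0.23 for MRPL23 and -0.27 for MRPL53, and between -1.53 and 0.88 when exchanged.

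How the counting treated pseudogene copies is not given in the sources used here. A pseudogene symbol with the same stem exists for 36 members, with a median efficiency change of -0.86 and a median GC content of 47.9%, and for the other 41 none does, with -0.06 and 52.3%. Among members under 45% GC the medians were -1.75 (12 with) and -1.80 (10 without), at 45 to 55% they were -0.46 (20) and -0.31 (15), and at 55% or more 0.05 (4) and 0.65 (16).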
